A study of Mus musculus with 50 samples.

Results

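The late state of intermediate digits was measured as the difference between 21 days and 0 hours after amputation. It comprised 6 of the 12 intermediate digits and of the 50 samples of the series: the 3 digits labelled 21 days and the 3 labelled 0 hours, chosen by these labels alone. An intermediate digit is the third digit of a mouse hindlimb from which an intermediate length of the terminal phalanx (P3) had been removed. The 21-day digits carried labelled amputation levels of 48%, 49% and 52% and the 0-hour digits levels of 52%, 53% and 55%. The digits came from young adult male C57Bl/6 mice, in which digit 3 of both hindlimbs was amputated and the skin healed without sutures. The 0-hour digits were amputated too, and had no time to heal. The labels give the tissue as a mixture of the cells about the wound bed, so no cell type was isolated, and 1 library of polyadenylated RNA was made per digit. Intermediate digits at 24 hours, with levels of 41%, 50% and 52%, and at 14 days, with levels of 42%, 52% and 54%, served for comparison. So did digits labelled non-regenerative, with levels of 62% to 75% at 0 hours and 71% to 79% at 21 days. The 62% of 2 of the 3 non-regenerative 0-hour digits lies below the limit that defines that group in the methods and within the range for intermediate digits, and the groups here follow the labels.

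The P3 bone carries the nail, and its tip can be rebuilt after a distal amputation but not after a proximal one. During repair, osteoclasts resorb the bone stump, fibroblastic cells lay down collagen and other matrix, and osteoblasts form new bone directly within the matrix. Fibrillar collagens are assembled from chains that are hydroxylated in the endoplasmic reticulum and cross-linked outside the cell. RUNX2 and SP7 (osterix) are the transcription factors that osteoblasts require, and osteocalcin and bone sialoprotein are proteins of the mineralizing matrix.

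The 6 libraries held 3915768 to 11980697 expected counts in genes. A gene with a count of 0 can have had up to 3 counts at this depth. Spearman's correlation over all tested genes ran from 0.951 to 0.970 between the 0-hour digits, was 0.965 between the 21-day digits, and ran from 0.933 to 0.961 between the groups. Among the 0-hour digits, replicate 1 had the largest library and was a right digit whose label carries a date of December 2015, while the other 5 digits were left digits with dates of July or August 2015. What the date stands for is not stated. No 0-hour digit shares its date with a 21-day digit, so label date and time after amputation cannot be told apart in this comparison. The labels do not tie digits to mice, so p-values measure the spread between these digits. Of the lists that check the tissue, the hard keratins of nail summed to between 2352 and 5533 normalized TPM per digit (a length-corrected level that the authors scaled between samples), the cornified envelope genes of skin to between 32498 and 58061, and osteoblast genes to between 337 and 1625. Melanocyte genes summed to at most 3.31.

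At 21 days, 164 genes were higher and 22 were lower than at 0 hours among 13360 genes tested, which is 1.23% and 0.165% of them and 1.39% together (edgeR's quasi-likelihood test, Benjamini-Hochberg adjusted p under 0.05, and group means of the normalized count, each with 1 added, that differ by over 2-fold). A normalized count here is the expected count scaled to the geometric mean library of the 6 digits. The median log2 fold change over all genes tested was 0.00411. The groups did not overlap in 11.9% of genes on the higher and in 10.6% on the lower side, and in each of the 186 called genes. The number called depended on single digits: it was 45 without 0-hour replicate 2, 280 without 0-hour replicate 3, 81 without 21-day replicate 1 and 96 without 21-day replicate 3. Without 0-hour replicate 1, which leaves 0-hour digits of a July date and 21-day digits of an August date, 134 genes were called, of which 107 were among the 186. In all of these fits the 186 genes kept their direction, which the lack of overlap between the groups all but fixed in advance. Of the 186 genes, 43 (36 higher and 7 lower) were called in all 6 fits with 1 digit less. In bulk tissue, a change in the number of cells of a type cannot be told apart from a change in the RNA per cell.

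**Figure D1:**
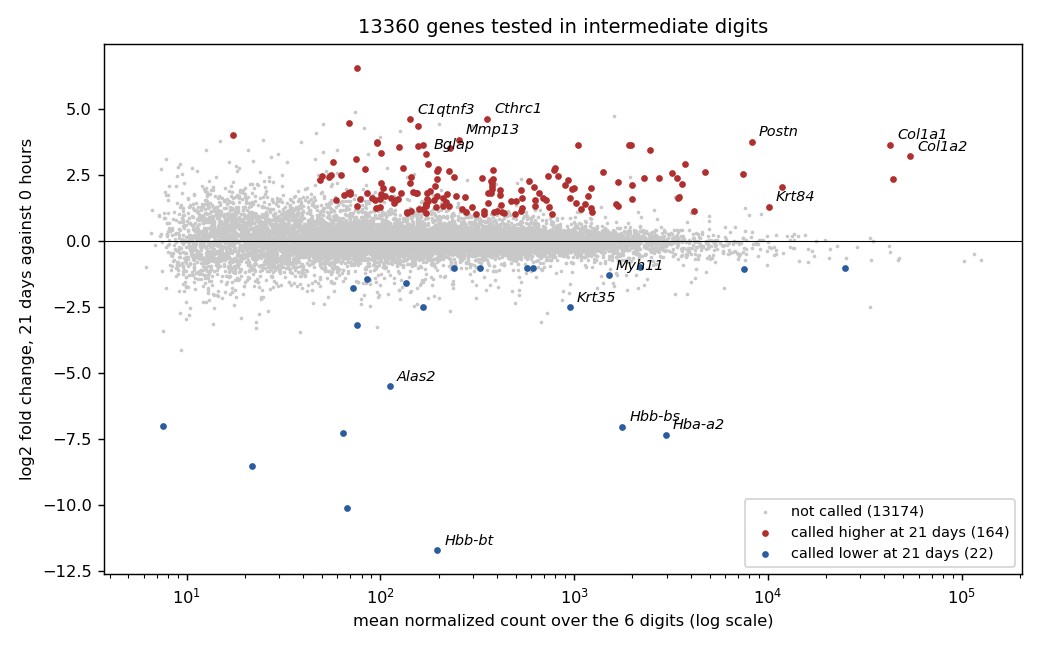
Each point is 1 of the 13360 genes tested, with its mean normalized count over the 6 intermediate digits on a log axis and its log2 fold change at 21 days against 0 hours on the other axis. The 164 genes called higher (red) lie between 1.0 and 6.54, and the haemoglobin genes with Ppbp and Tubb1 have the most negative values among the genes called lower (blue). The positions of Hbb-bt, Ppbp and Tubb1, which had 0 counts in each 21-day digit, depend on the fit.

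Among genes with a mean of at least 100 normalized counts, the 15 largest rises included collagen chains, matricellular proteins and a collagenase. Cthrc1, which encodes a secreted protein of matrix-forming fibroblasts (chr15:39076932-39087121, GRCm38), had normalized counts of 23.1, 8.81 and 57.2 at 0 hours and 791, 418 and 829 at 21 days. Every 21-day digit thus exceeded the highest 0-hour digit, and the log2 fold change was 4.62 ± 0.51 (SE, adjusted p = 0.00354). Postn encodes periostin, a matricellular protein of periosteum and of healing connective tissue (chr3:54361109-54391037). Its normalized counts were 672, 950.1 and 1802 at 0 hours and 17508, 10407 and 18082 at 21 days (log2 fold change 3.75 ± 0.38, adjusted p = 0.00271). C1qtnf3, a secreted C1q and tumour necrosis factor related protein of cartilage and mesenchyme, gave the smallest adjusted p of the comparison, with counts of 11.3, 9.79 and 12.9 at 0 hours and 236, 219.9 and 368 at 21 days (log2 fold change 4.59 ± 0.31, adjusted p = 0.000836). The digits of each group lay close together in this gene compared with the distance between the groups.

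Edil3, an integrin-binding matrix protein, had counts of 14.2, 18.6 and 10.005 at 0 hours and 240.2, 213 and 447 at 21 days (log2 fold change 4.34 ± 0.37, adjusted p = 0.00177). Thbs2, thrombospondin 2, had a log2 fold change of 3.63 ± 0.34 (adjusted p = 0.00196). Itga11, the collagen-binding integrin chain of fibroblasts, had 17.8, 11.7 and 30.01 counts at 0 hours and 280.1, 116 and 290.2 counts at 21 days (log2 fold change 3.56 ± 0.45, adjusted p = 0.00558). The secreted carboxypeptidase-like gene Cpxm1 rose by 3.59 and C1qtnf6 by 3.63, with adjusted p of 0.00177 and 0.00284. Matn4, a matrilin of cartilage and soft matrix, had the largest SE of the 15 largest rises, with 6.53, 12.7 and 41.4 at 0 hours and 304, 88.4 and 155 at 21 days (log2 fold change 3.31 ± 0.67, adjusted p = 0.0412), and it was called in 2 of the 6 fits that left out a digit.

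Of 23 collagen chains, all of them tested, 19 were called higher and none lower, against 1.23% of all genes, with a median log2 fold change of 2.18. The summed level of the list was between 2351 and 4914 normalized TPM at 0 hours and between 10963 and 23976 at 21 days. This and the other lists were chosen with earlier results of these data known, so their shares beside those of all genes are descriptions only. Col1a1, the main chain of the type I collagen of bone and skin (chr11:94936224-94953042), had normalized counts of 3749.9, 4338 and 11092 at 0 hours and 88393, 41967 and 106963 at 21 days, a mean of 6393 ± 4080.0 against 79108 ± 33478 (SD, n = 3 each) and a log2 fold change of 3.63 ± 0.48 (adjusted p = 0.00635). Its partner Col1a2 changed by 3.20 ± 0.47 (adjusted p = 0.00977). Replicate 3 had the highest value of both chains at 0 hours and replicate 2 the lowest at 21 days, and the groups were still apart.

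Col12a1 and Col6a3, which coat fibrils and link them to the cell surface, rose by 3.64 ± 0.33 (adjusted p = 0.00177) and by 3.42 ± 0.32 (adjusted p = 0.00196). Col24a1, a minor fibrillar chain of forming bone, had counts of 27.3, 38.2 and 45.7 and then 467, 258 and 537 (log2 fold change 3.53 ± 0.32, adjusted p = 0.00177), and its locus overlaps a transcript without a gene name on each strand. Col11a1, which seeds fibrils in cartilage and bone, rose by 3.62 ± 0.54 (adjusted p = 0.0104), and Col8a1, a short-chain collagen of vessel walls and wounds, by 1.81 ± 0.23 (adjusted p = 0.00558). The basement membrane chains Col4a1 and Col4a2 rose less, by 1.58 and 1.40. The chains not called were Col11a2 (2.18, adjusted p = 0.121), Col14a1 (0.66, adjusted p = 0.409), the epidermal anchoring chain Col17a1 (-0.10, adjusted p = 0.788) and Col18a1, whose adjusted p of 0.027 came with a change of 0.89 that was under 2-fold. Leaving out a digit gave between 4 and 21 called chains. The lowest number came from the fit without 0-hour replicate 2.

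Among 26 genes of collagen folding, processing and cross-linking, 6 were called higher and none lower, against 1.23% and 0.165% of all genes, with a median of 1.0. Lox, the lysyl oxidase that starts cross-links, had counts of 133, 169 and 334 at 0 hours and 1594, 812 and 1656 at 21 days (log2 fold change 2.70 ± 0.37, adjusted p = 0.00785). P3h1 and Fkbp10, which modify and fold procollagen, rose by 1.88 ± 0.25 (adjusted p = 0.00635) and by 1.69 ± 0.29 (adjusted p = 0.0214). The prolyl hydroxylase chain P4ha3 rose by 2.48 ± 0.49 (adjusted p = 0.0399) from low counts of 8.9, 13.7 and 30.01 to 94.7, 61.2 and 125. The other called members were Creb3l1, a transcription factor that acts on collagen genes, and Loxl1. With a digit left out, 1 to 12 members were called, and the fewest without 0-hour replicate 2.

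Of 22 matricellular and provisional matrix genes, 9 were called higher and none lower (median 0.79). Besides Cthrc1, Postn and Thbs2 these were Wisp1, Fbn2, Fndc1, Tnn, Tnc and Sparc. Wisp1, a CCN family protein of bone-forming tissue, had counts of 8.9, 16.6 and 15.7 at 0 hours and 183, 138 and 215 at 21 days (log2 fold change 3.74 ± 0.34, adjusted p = 0.00177). Tnn, tenascin W, rose by 2.36 ± 0.25 (adjusted p = 0.00316). The fits that left out a digit called 7 to 10 members, with the minimum without 0-hour replicate 2. Fibronectin (Fn1) had 0.74 (adjusted p = 0.439), and Fbn1, Eln and Thbs1 also did not pass the test. Of 14 proteoglycan genes, 7 rose and none fell (median 1.32). Lum (lumican), Aspn (asporin), Ogn (osteoglycin) and Omd (osteomodulin) bind or space collagen fibrils. Aspn had counts of 567, 618 and 1465 and then 7956, 4134 and 7739 (log2 fold change 2.91 ± 0.40, adjusted p = 0.00718), and Lum rose by 2.55 ± 0.32 (adjusted p = 0.0055), Omd by 2.64 ± 0.40 (adjusted p = 0.0127) and Ogn by 2.26 ± 0.34 (adjusted p = 0.012). Ogn, Omd and Aspn lie within Cenpp on the other strand, and whether counting used strand is not stated in the sources used here. Decorin (Dcn) had -0.13 (adjusted p = 0.86). Between 0 and 8 members were called higher when a digit was left out, the fewest without 0-hour replicate 2, and 1 was called lower without 0-hour replicate 1. The medians of these lists stand beside 0.00411 for all genes tested, and their counts beside 1.23% of all genes called higher and 0.165% called lower.

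**Figure D2:**
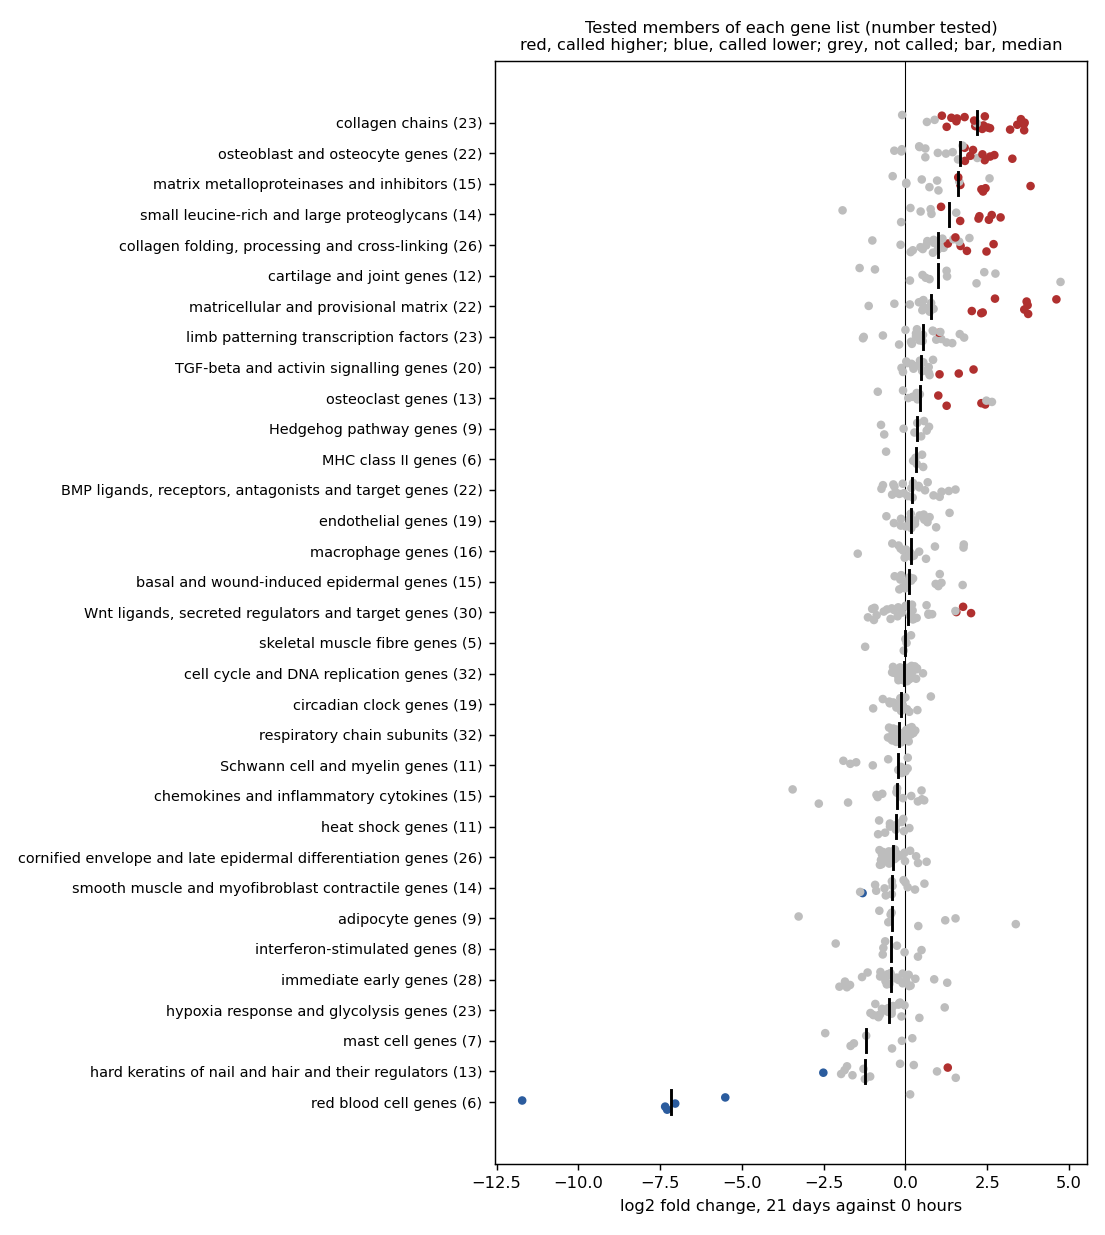
Each point is a tested member of a gene list with at least 5 tested members, at its log2 fold change between 21 days and 0 hours in intermediate digits, red where called higher, blue where called lower and grey otherwise, and the bar is the list's median. Collagen chains, osteoblast genes, metalloproteinases and proteoglycans have medians from 1.32 to 2.18, and red blood cell genes have a median of -7.16, in which the fitted value of Hbb-bt is not a bound.

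Genes of bone-forming cells were among those that rose. Of 24 osteoblast and osteocyte genes, 22 were tested, 9 were called higher and none lower, against 1.23% and 0.165% of all genes, with a median of 1.68. Runx2 (chr17:44495987-44814797) had normalized counts of 61.7, 77.3 and 65.7 at 0 hours and 322, 182 and 219 at 21 days, with no overlap and a log2 fold change of 1.82 ± 0.26 (adjusted p = 0.00875). Its locus overlaps Supt3 and 3 antisense transcripts on the other strand. Sp7 had 23.7, 15.7 and 10.005 and then 117, 59.2 and 103 (log2 fold change 2.42 ± 0.42, adjusted p = 0.0245).

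Among genes of mineralization, Phex, a membrane endopeptidase of osteoblasts and osteocytes, had 53.4, 47.9 and 55.7 at 0 hours and 546, 251 and 235 at 21 days (log2 fold change 2.72 ± 0.34, adjusted p = 0.00558). Enpp1, which makes pyrophosphate, rose by 1.81 ± 0.26 (adjusted p = 0.0088), and the osteocyte matrix protein Dmp1 by 2.35 ± 0.40 (adjusted p = 0.0226). Ibsp, bone sialoprotein, had 405, 229 and 577 and then 2036, 1026 and 4222 (log2 fold change 2.59 ± 0.49, adjusted p = 0.035), and Bglap, osteocalcin, 10.7, 19.6 and 75.7 and then 366, 305 and 259 (log2 fold change 3.27 ± 0.57, adjusted p = 0.0245). Bglap has near-identical copies, of which Bglap2 (2.20, adjusted p = 0.169) and Bglap3 (0.61, adjusted p = 0.355) did not pass, and the split of reads among them is uncertain. Spp1 (osteopontin) and Pth1r, the parathyroid hormone receptor, were the other called members, at 1.98 and 2.07. Sp7, Ibsp, Bglap, Spp1 and Pth1r were named after their values were seen.

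Alkaline phosphatase (Alpl) had 1.61 (adjusted p = 0.106) and the osteocyte gene Sost 0.99 (adjusted p = 0.493), with counts of 27.3, 6.85 and 17.2 and then 54.8, 15.3 and 34.8 that overlapped. Dlx5 and Smpd3 were near 0, at -0.12 and -0.11. Of the 9 called bone-forming genes, Phex, Enpp1 and Runx2 were called in 5 of the 6 fits that left out a digit, Sp7 in 3, and each of the other 5 in 2. The number called in these fits ran from 0 to 10 and was lowest without 0-hour replicate 2.

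The sequences before the transcription starts of 3 of the genes that rose are shown as 1 example each from the called genes of the bone, metalloproteinase and matricellular lists. They are the 250 bases before the start in the RefSeq promoters of GRCm38.p6, written 5′ to 3′ on the strand of the gene. Capitals mark matches to TGTGGT or its complement ACCACA (the core bound by RUNX factors), TGANTCA (AP-1) and TATAAA (the TATA box), each searched on both strands. Bglap lies on the minus strand at chr3:88384467-88384716, Mmp13 on the plus strand at chr9:7272264-7272513 and Postn on the plus strand at chr3:54360857-54361106.
Bglap: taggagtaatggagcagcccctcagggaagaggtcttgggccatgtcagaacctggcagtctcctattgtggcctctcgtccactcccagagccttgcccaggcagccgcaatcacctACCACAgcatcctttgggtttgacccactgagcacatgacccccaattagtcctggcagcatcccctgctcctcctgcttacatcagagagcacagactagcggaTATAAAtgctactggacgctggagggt
Mmp13: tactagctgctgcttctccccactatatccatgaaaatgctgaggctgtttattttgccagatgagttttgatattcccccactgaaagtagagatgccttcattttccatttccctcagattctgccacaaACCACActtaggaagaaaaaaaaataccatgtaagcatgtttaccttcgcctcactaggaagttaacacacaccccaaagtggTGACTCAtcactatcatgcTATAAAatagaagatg
Postn: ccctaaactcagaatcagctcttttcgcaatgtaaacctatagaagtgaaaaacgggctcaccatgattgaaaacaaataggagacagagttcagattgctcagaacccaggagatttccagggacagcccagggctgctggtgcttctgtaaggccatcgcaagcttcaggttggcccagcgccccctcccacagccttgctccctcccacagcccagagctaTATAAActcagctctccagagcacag

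In the Bglap promoter the RUNX core began 132 bases and the TATA box 27 bases before the start. In the Mmp13 promoter the RUNX core began 118 bases, the AP-1 match 35 bases and the TATA box 16 bases before the start, and in the Postn promoter a TATA box began 26 bases before it. Over all 32851 promoters of the table, 14% held a RUNX core, 6.75% an AP-1 match, 12.4% a TATA box and 66.2% an E-box (CANNTG). Of the 164 genes called higher, 111 had a promoter in the table, and of these 14.4% held a RUNX core, 5.41% an AP-1 match, 18% a TATA box and 62.2% an E-box. The 11 of the 15 largest rises with a promoter included 1 with a RUNX core, 2 with an AP-1 match and 4 with a TATA box. Among genes called higher, the share with a RUNX core differed by less than 1 percentage point from that of all promoters. A match to these letters is a description and does not show that a factor was bound.

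Some genes that resorb bone and matrix also rose. Of 18 osteoclast genes, 13 were tested, 4 were called higher and none lower, against 1.23% and 0.165% of all genes (median 0.44). Ctsk, cathepsin K, the main collagenase of osteoclasts, which fibroblasts can also express, had 138, 216 and 424 at 0 hours and 1686, 953 and 1524 at 21 days (log2 fold change 2.44 ± 0.38, adjusted p = 0.014). Mmp9 changed by 2.32 ± 0.35 (adjusted p = 0.0118) and Acp5, tartrate-resistant acid phosphatase, by 1.26 ± 0.23 (adjusted p = 0.0303). Nfatc1, the master regulator of osteoclasts, passed at 1.0 ± 0.20 (adjusted p = 0.0399), just over the 2-fold limit, and was called in 0 of the 6 fits that left out a digit. Ocstamp and Atp6v0d2 had larger changes, 2.64 (adjusted p = 0.191) and 2.47 (adjusted p = 0.147), that did not pass, and the proton pump subunit Tcirg1 had 0.37 (adjusted p = 0.516). Calcr, Oscar, Dcstamp, Siglec15 and Tnfsf11 had too few counts to be tested. With a digit left out, 0 to 3 members were called, and the fewest without 0-hour replicate 2 and without 21-day replicate 1 and without 21-day replicate 3.

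Among 20 matrix metalloproteinases and inhibitors, 15 were tested, 6 were called higher and none lower, against 1.23% and 0.165% of all genes (median 1.61). Mmp13, the collagenase of bone and cartilage, had counts of 14.2, 35.2 and 57.2 at 0 hours and 441, 397 and 577 at 21 days (log2 fold change 3.83 ± 0.41, adjusted p = 0.00312). Mmp2, a gelatinase, and Mmp14, the membrane protease that activates it, rose by 2.37 ± 0.26 (adjusted p = 0.00354) and by 1.68 ± 0.21 (adjusted p = 0.00558). Their inhibitor and partner Timp2 rose by 1.61 ± 0.20 (adjusted p = 0.00517), and Mmp11 by 2.45. Mmp13, Mmp2 and Timp2 stayed called whichever digit was left out. The fits that left out a digit called 3 to 8 members, with the minimum without 0-hour replicate 2.

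Of 20 TGF-beta and activin genes, 3 were higher, against 1.23% of all genes (median 0.48): the ligands Tgfb3, by 1.63 ± 0.31 (adjusted p = 0.0347), and Tgfb2, by 1.04 ± 0.19 (adjusted p = 0.0325), and the latent binding protein Ltbp2, by 2.08 ± 0.34 (adjusted p = 0.0168). None of the 3 was called without 0-hour replicate 2, without 21-day replicate 1 or without 21-day replicate 3. Of 30 tested Wnt genes, 3 were higher (median 0.07). These were the secreted Dkk3 (2.0 ± 0.28, adjusted p = 0.00753), the secreted Wnt-binding protein Sfrp2 (1.56 ± 0.21, adjusted p = 0.00653) and the R-spondin receptor Lgr5 (1.76 ± 0.35, adjusted p = 0.0412). Lgr5 was called in 0 of the 6 fits that left out a digit and Sfrp2 in 5. Of 23 limb patterning factors, Prrx1, a homeobox gene of limb mesenchyme, was the single called member (1.03 ± 0.16, adjusted p = 0.0151), with 402, 533 and 587 counts at 0 hours and 987, 979.8 and 1129 at 21 days. Prrx1, just over the 2-fold limit, was called in 2 of those 6 fits.

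Of 22 tested BMP genes none was called (median 0.20), beside 1.39% of all genes called. Of these 22, 8 had an unadjusted p under 0.05, a larger share than the 16.6% of all genes tested. Without 21-day replicate 2, 2 BMP genes were called higher. Bmp2, a bone-inducing ligand, had counts of 117, 146 and 100.05 at 0 hours and 128, 132 and 167 at 21 days, which overlap, and a log2 difference of 0.22 with a 95% interval of -0.29 to 0.73 (adjusted p = 0.694). The smallest p of the list belonged to Id1, a target gene of BMP signalling (-0.69, adjusted p = 0.0589), and the ligand Bmp5 (0.86, adjusted p = 0.0744). None of 9 Hedgehog genes was called, with Gas1 at 0.57 (adjusted p = 0.0957) and Gli3 at 0.72 (adjusted p = 0.162).

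Of 12 tested cartilage genes none was called, beside 1.39% of all genes called, although the median was 1.0. Without 21-day replicate 2, 2 were called higher, and without 0-hour replicate 1, 1 (Prg4) was called lower. Col2a1, the main collagen of cartilage, had 2.37, 8.22 and 15.9 normalized TPM at 0 hours and 13.6, 6.67 and 555 at 21 days, so that replicate 3 stood alone. In the same digit Matn3, Col9a1 and Col9a2 had 23.7, 43.7 and 55.2 normalized TPM, against at most 5.49 in the other 5 digits. Acan (aggrecan) had counts of 224, 177 and 226 at 0 hours and 729, 381 and 1741 at 21 days and missed the threshold (2.17 ± 0.46, adjusted p = 0.0501), and Hapln1 had 2.75 (adjusted p = 0.0935). The part of this digit in other results was not tested, and the values without it are those of the fits that left out 21-day replicate 3.

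The largest falls were in genes of red blood cells and platelets. Of 7 red blood cell genes, 6 were tested and 5 were called lower, against 0.165% of all genes. Hba-a2, an alpha-globin gene (chr11:32296489-32297298), had normalized counts of 4383, 3193 and 10159 at 0 hours and 11.96, 79.3 and 3.48 at 21 days (log2 fold change -7.35 ± 0.85, adjusted p = 0.00409), and Hbb-bs, a beta-globin gene, had 3508, 1861 and 5179.5 and then 12.96, 53.6 and 1.74 (-7.04 ± 0.71, adjusted p = 0.00271). Hbb-bt had 428, 222 and 533 at 0 hours and 0 counts in each 21-day digit, which is at least 75.6-fold lower against 3 counts in the smallest library of the group (adjusted p = 0.00177). Alas2, the erythroid enzyme of haem synthesis, fell by 5.51 on the log2 scale (adjusted p = 0.00354), from 198, 94.9 and 363 to 1.99, 5.57 and 6.95. Hba-a1, a near-identical copy of Hba-a2, was the fifth and had 99.7, 79.3 and 203 and then 0, 0 and 3.48. The median of the list was -6.64 with Hbb-bt at its bound. Slc4a1, whose anion exchanger is also made elsewhere, had 0.14 (adjusted p = 0.959). The summed level of the list was between 2283 and 6958 normalized TPM at 0 hours and between 4.48 and 56.8 at 21 days. Leaving out a digit gave 5 called genes each time. The fall was not particular to intermediate digits at 21 days. Against the 0-hour digits of their own group, 5 of 5 tested members were called lower in intermediate digits at 14 days (fitted median -7.87). The same held in non-regenerative digits at 21 days (fitted median -5.39). At 24 hours none of 5 tested in intermediate digits was called, with a fitted median of -4.29. Ppbp and Tubb1, genes of platelets, were also called lower and were named after their values were seen. Ppbp had 17.2, 80.2 and 304 and Tubb1 18.4, 22.5 and 90.04 at 0 hours, and both had 0 counts in each 21-day digit, which is at least 25.7-fold and 8.37-fold lower. The part of blood RNA in the other results was not tested.

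**Figure D3:**
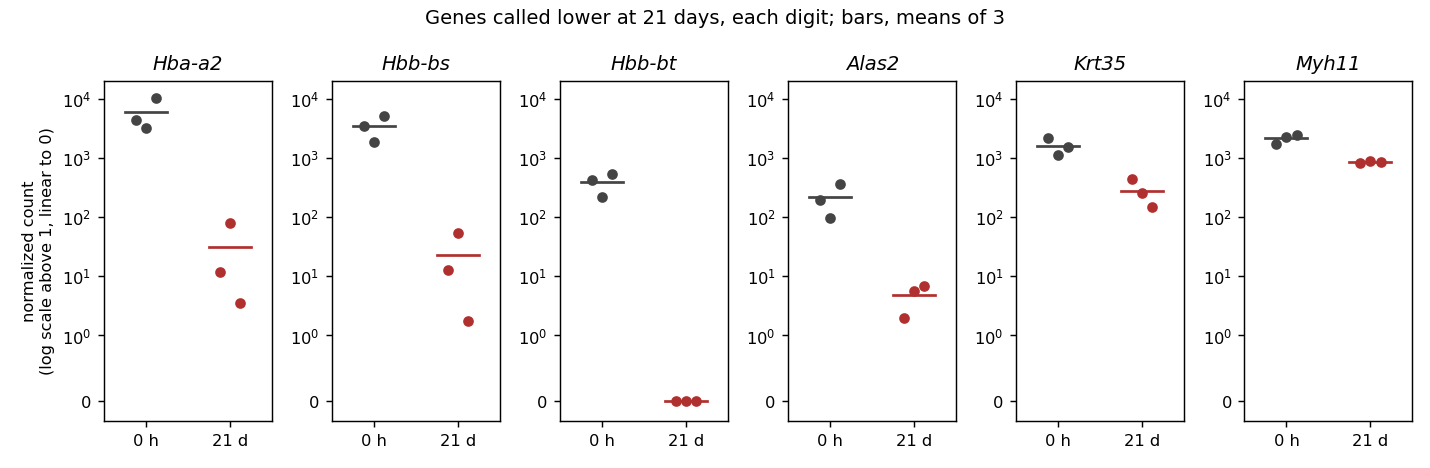
Normalized counts of 6 genes called lower, in each of the 3 digits at 0 hours (grey) and at 21 days (red), with bars at the means and an axis that is logarithmic above 1 and linear down to 0. The haemoglobin genes and Alas2 are far apart between the groups, Hbb-bt is at 0 in all 21-day digits, and Krt35 and Myh11 differ less.

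Falls outside the blood lists included genes of nail, epidermis and smooth muscle. Krt35, a hard keratin of nail and hair (chr11:100092193-100096241), had counts of 2208, 1136 and 1506 at 0 hours and 443, 253 and 148 at 21 days (log2 fold change -2.51 ± 0.37, adjusted p = 0.0106) and stayed called whichever digit was left out. It was not called in the fits of all 12 intermediate digits, with or without the amputation level, nor in those of all 41 digits. Of the 13 tested hard keratins and their regulators, Krt35 was lower and Krt84 was higher, against 0.165% and 1.23% of all genes. Krt84, a keratin of the nail bed and tongue, had 4492, 7549 and 5525 and then 15640.4, 9388 and 18046 (1.29 ± 0.26, adjusted p = 0.0422), and was called in 1 of those 6 fits. Krt31, Krt81 and Krt86 had -1.24, -1.86 and -1.79 and did not pass, with 0-hour replicate 1 far above the other 0-hour digits, as in Krt86 with 6919, 1582 and 1485. The median of the list was -1.24. Without 0-hour replicate 3, 3 members were called lower, and without 21-day replicate 2, 2 were called higher.

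Myh11, the smooth muscle myosin heavy chain, had 1754, 2272 and 2425 at 0 hours and 837, 899 and 864 at 21 days (log2 fold change -1.31 ± 0.15, adjusted p = 0.00409). It was the single called member of 14 tested contractile genes, whose median was -0.42, against 0.165% of all genes called lower. Acta2 had -0.60 (adjusted p = 0.272) and Tagln -0.42 (adjusted p = 0.344). Krt24 and Krt78 are keratins of differentiated epithelium. Krt24 had 38235, 28517 and 34527 and then 12794, 18377 and 18042 (-1.04 ± 0.18, adjusted p = 0.0226), and Krt78 fell by 1.06 and Fam25c by 1.0 on the log2 scale, with adjusted p of 0.0276 and 0.0184.

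The other falls by the same rule included Arl4d, a small GTPase gene, with 225, 212 and 179 and then 61.8, 74.5 and 64.3 (-1.62 ± 0.21, adjusted p = 0.00621), and Ccer2 (-2.51 ± 0.34, adjusted p = 0.00718). Slc7a11, the cystine transporter, and Ndufa8, a subunit of respiratory complex I, had -1.02 ± 0.17 (adjusted p = 0.0205) and -1.04 ± 0.18 (adjusted p = 0.0249). Fam213b (-1.04 ± 0.13, adjusted p = 0.0055) and Cib2 (-1.05 ± 0.22, adjusted p = 0.0479) complete the 15. Ccer2, Fam213b and Cib2 overlap a gene on the other strand. Of these 15, Krt78, Cib2, Krt24, Ndufa8, Slc7a11 and Fam25c were not called when 0-hour replicate 1 was left out, and each was called in at most 2 of the 6 such fits.

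None of 26 tested cornified envelope genes was called, beside 1.39% of all genes called. Of the 26, 22 had a negative log2 fold change, and the sum of the list went from between 47631 and 58061 normalized TPM to between 32498 and 36120.0. Without 0-hour replicate 3, 4 cornified envelope genes were called lower and 1 basal or wound-induced epidermal gene higher. Krt10, the keratin of the suprabasal epidermis, had -0.50 (adjusted p = 0.0849) and Hrnr, hornerin, -0.75 (adjusted p = 0.0849). Of 15 basal and wound-induced epidermal genes none was called, with Itga5 at 1.05 (adjusted p = 0.0716) and Krt17, a keratin of wounded skin, at 1.10 (adjusted p = 0.106).

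With all 6 digits, the lists of immune cells held no called gene, beside 1.39% of all genes called. At that share lists this short would mostly hold none, so the lack of calls does not show that these cells were unchanged. Macrophage genes had a median of 0.16 over 16 tested, and the smallest p were those of Ms4a7 (1.78, adjusted p = 0.0692) and Trem2 (1.78, adjusted p = 0.132). Of 15 neutrophil genes 2 could be tested, S100a9 at -1.05 (adjusted p = 0.655) and Cxcr2 at -0.47 (adjusted p = 0.62), and of 15 lymphocyte genes only Cd5 (0.19, adjusted p = 0.921). The MHC class II genes had a median of 0.33 over 6 tested, with H2-Aa at 0.54 (adjusted p = 0.283) and H2-Ab1 at 0.34 (adjusted p = 0.584). Mast cell genes had a median of -1.20 over 7 tested, with Hdc, which makes histamine, at -2.45 (adjusted p = 0.147) and Kit at -1.68 (adjusted p = 0.205). Among 15 tested chemokines and cytokines, Il6 had 1.19, 170.3 and 42.9 at 0 hours and 4.98, 10.4 and 1.74 at 21 days (-3.45, adjusted p = 0.208), and Cxcl1 had 5.34, 926 and 262 and then 56.8, 89.1 and 36.5 (-2.65, adjusted p = 0.277). In both, 0-hour replicate 1 lay below all 21-day digits and the other 0-hour digits lay above them. Among 8 interferon-stimulated genes, Rsad2 had -2.13 (adjusted p = 0.119) and Ifit2 0.38 (adjusted p = 0.531). Without 0-hour replicate 1, Il6, Cxcl1 and Rsad2 were called lower. Without 0-hour replicate 3, 2 macrophage genes were called higher, and without 21-day replicate 2, 1 mast cell gene lower.

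The counts of the endothelial, Schwann cell, adipocyte and skeletal muscle lists also stand beside 1.39% of all genes called. Of 19 endothelial genes none was called (median 0.18), with Aplnr at 1.35 (adjusted p = 0.0685) and Cdh5 at 0.94 (adjusted p = 0.102). Of 11 Schwann cell genes none was called (median -0.22), with Sox10 at -1.69 (adjusted p = 0.13) and S100b at -1.51 (adjusted p = 0.201). Of 9 adipocyte genes none was called, with Lpl at 1.22 (adjusted p = 0.0584) and Cfd at -3.27 (adjusted p = 0.0858). Cfd was called lower without 0-hour replicate 1, and 1 adipocyte gene was called higher without 21-day replicate 2. Of 5 skeletal muscle genes none was called, with Tnni2 at -1.23 (adjusted p = 0.355) and Neb at 0.17 (adjusted p = 0.957).

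Lists of the cell's general state also held no called gene with all 6 digits, beside 1.39% of all genes called. For 2 of these lists this changed without 0-hour replicate 1. In that fit, 6 immediate early genes (Jun, Fos, Fosb, Atf3, Socs3 and Zfp36) and 2 glycolysis genes (Pfkl and Aldoa) were called lower, and 1 glycolysis gene was so without 21-day replicate 2. Fos, Fosb, Atf3, Socs3 and Zfp36 were named after their values were seen. The 32 cell cycle genes lay between -0.41 and 0.54, and 0 of them had an unadjusted p under 0.05. Rrm2 had 0.35 (adjusted p = 0.305) and Mcm3 -0.41 (adjusted p = 0.304). The 28 immediate early genes had a median of -0.45. Jun had 1269, 4496 and 4801 at 0 hours and 1043, 1107 and 1110.3 at 21 days (-1.69, adjusted p = 0.074), so that 0-hour replicate 1 lay near the 21-day digits, and Gadd45b had -1.16 (adjusted p = 0.0849). Of 23 hypoxia and glycolysis genes, 15 had an unadjusted p under 0.05, against 16.6% of all genes tested, and 21 a negative difference (median -0.49). Pfkl, phosphofructokinase, had an adjusted p of 0.0374 with a difference of -0.98, under the 2-fold limit, and Aldoa had -1.07 (adjusted p = 0.0595). Of 11 heat shock genes, Hspe1 had an adjusted p of 0.0325 at -0.81, also under 2-fold, and Hspa1a had -0.84 (adjusted p = 0.0521). The 32 respiratory chain genes had a median of -0.20, with Ndufs3 at -0.53 (adjusted p = 0.133) and Cox4i1 at -0.40 (adjusted p = 0.144). The 19 clock genes had a median of -0.14, with Ciart at -0.69 (adjusted p = 0.132) and Per2 at -0.99 (adjusted p = 0.215). The Y-linked gene Ddx3y was present in all 6 digits, at between 1180.3 and 1651 counts, as the stated sex of the mice requires, and Kdm5d had a log2 difference of 0.33 (adjusted p = 0.342).

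Levels at 24 hours and 14 days were set beside those at 21 days. Against the same 0-hour digits, 199 genes were higher and 25 lower at 14 days (1.49% and 0.187% of 13334 tested), and 2 genes, Mmp3 and Acod1, were called at 24 hours (0.0152% of 13172). Since these comparisons share the 0-hour digits, their values are given side by side only. Col1a1 had 145, 166 and 426 normalized TPM at 0 hours and 261, 130.3 and 163 at 24 hours. At 14 days it had 3069.5, 5547 and 3996 and at 21 days 3441, 1632 and 4199. Col1a1 overlapped its 0-hour range at 24 hours, and the ranges at 14 and 21 days overlapped. Bglap had 7.41, 13.8 and 49.4 at 0 hours and 49.8, 1.87 and 2.02 at 24 hours. At 14 days it had 157, 388 and 194 and at 21 days 255, 209.7 and 188. Mmp13 was above its 0-hour range already at 24 hours, with 1.22, 3.02 and 4.91 at 0 hours and 82.3, 20.5 and 31.6 at 24 hours. At 14 days Mmp13 had 192, 37.3 and 43.7 and at 21 days 38.2, 34.2 and 50.5.

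**Figure D4:**
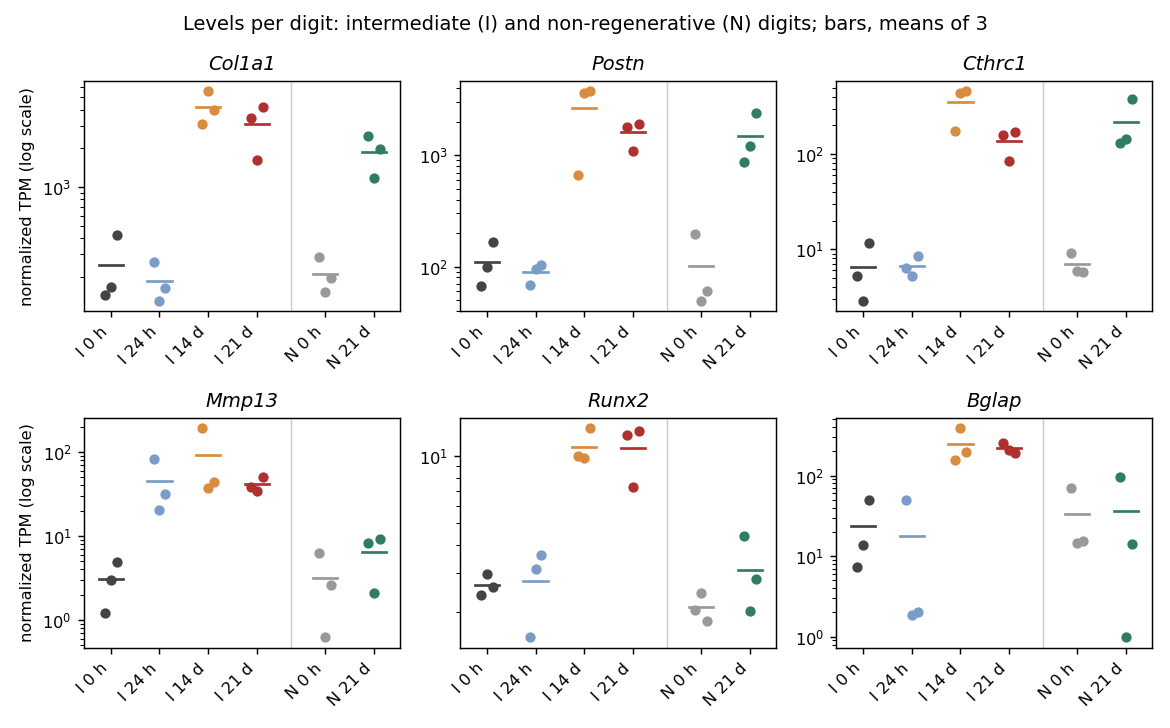
Normalized TPM on a log axis in each digit, for 6 genes called higher at 21 days in intermediate digits, with bars at the means of 3 digits. I marks intermediate and N non-regenerative digits. The 21-day intermediate digits lie above all 0-hour digits of either kind in each panel, and for Runx2, Bglap and Mmp13 also above all 21-day non-regenerative digits.

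The digits at 21 days were then tested directly against those at 14 days. No gene of 13363 was called by edgeR's quasi-likelihood test, 688 had an unadjusted p under 0.05, and DESeq2 called 4 higher (Aldh3a1, Dusp1, Egr1 and Gm20517) and 10 lower, among them Csrp2 and Cthrc1. Replicate 1 at 14 days has the lowest amputation level, 42%, and a later date than the other 5 of these digits. No gene was called without this replicate either. The 2 genes with the smallest p were Csrp2, which encodes a LIM protein of smooth muscle, and Aldh3a1, an aldehyde dehydrogenase of epithelia. Csrp2 had 79.9, 81.6 and 80.6 normalized TPM at 14 days and 27.96, 28.6 and 29.1 at 21 days (log2 difference -1.49, adjusted p = 0.118), and Aldh3a1 had 15.3, 12.6 and 25.3 and then 67.9, 48.8 and 42.8 (log2 difference 1.66, adjusted p = 0.933). At 0 hours both genes were close to their 21-day levels, with 25.1, 32.5 and 34.5 and 60.6, 57.3 and 81.3. Of the 164 genes higher at 21 days than at 0 hours, 107 had a lower fitted level at 21 than at 14 days, with a median difference of -0.15. Cthrc1 had a log2 difference of -1.34 and C1qtnf3 of -1.32, with adjusted p of 0.933 and 0.942.

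The last comparison asked whether the 21-day change differed between intermediate and non-regenerative digits. In 3 non-regenerative digits at 21 days against 3 at 0 hours, 54 genes were higher and 8 lower (0.394% and 0.0583% of 13712 tested). In the test of the difference itself, no gene of 14295 was called, and 846 had an unadjusted p under 0.05. DESeq2 called 5 with a more positive change in intermediate digits (Tfrc, Skint9, Serpinb3d, Panx3 and Gm45234) and 2 with a less positive one (Cpxm1 and Rps12). Its log2 differences were -44.5 ± 6.01 for Rps12, 25.8 ± 5.89 for Gm45234 and 6.81 ± 1.57 for Panx3 (SE). Those of Rps12 and Gm45234 are too large for counts of these libraries to measure, so they are not read as changes of these genes. The 21-day intermediate digits carry dates of August 2015 and the 21-day non-regenerative digits later ones, so amputation group and date cannot be told apart here. The 2 non-regenerative 0-hour digits at 62% also enter this test.

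Col1a1, Postn and Col12a1, 3 of the matrix genes that rose, had like estimates in both amputation groups, while Cpxm1, described below, did not. Among the 164 genes called higher in intermediate digits, 114 had a difference above 0, with a median of 0.24. In edgeR's test of the difference, 18 of them had an unadjusted p under 0.05. These genes were chosen by their rise in intermediate digits, so this lean is not independent of that choice. Col1a1 rose by 3.63 in intermediate digits and by 3.17 in non-regenerative digits on the log2 scale, a difference of 0.46 with a 95% interval of -0.92 to 1.84. For Postn the difference was 0.14 with a 95% interval of -1.45 to 1.72, and for Col12a1 it was -0.09 with a 95% interval of -1.12 to 0.93. Of the 23 collagen chains, 14 were called higher in non-regenerative digits, and of the 22 matricellular genes tested there 8. Each of these 3 intervals includes 0 and extends past 2-fold in at least 1 direction, so differences within it were not detectable.

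Several genes of bone-forming cells had larger estimates in intermediate digits, none of which passed the test of the difference. None of the 20 osteoblast genes tested in non-regenerative digits was called there, beside 0.394% of all genes called higher there. At that share a list of 20 would mostly hold none, so the lack of calls does not show a difference between the groups. Runx2 had log2 fold changes of 1.82 in intermediate and 0.71 in non-regenerative digits, a difference of 1.10 with a 95% interval of 0.25 to 1.96 (unadjusted p = 0.016, adjusted p = 0.78). Its normalized TPM at 21 days were 12.4, 7.3 and 12.9 in intermediate and 4.39, 2.03 and 2.82 in non-regenerative digits. Bglap differed by 3.10 with a 95% interval of -0.13 to 6.34, and had 255, 209.7 and 188 normalized TPM in intermediate and 95.2, 0.982 and 14.1 in non-regenerative digits at 21 days. Mmp13 differed by 2.67 with a 95% interval of 0.54 to 4.79 (unadjusted p = 0.018, adjusted p = 0.78), with 8.16, 2.07 and 9.28 normalized TPM in non-regenerative digits at 21 days. Ibsp and Pth1r differed little in their estimates, by 0.47 and 0.10.

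The 2 smallest p of this test were those of Tfrc, the transferrin receptor that takes up iron, and Cpxm1. Tfrc had 63.4, 72.2 and 72.7 normalized TPM at 0 hours and 90.7, 101 and 91.8 at 21 days in intermediate digits, and 71.1, 61.1 and 74.03 and then 45.5, 43.4 and 46.5 in non-regenerative digits (difference 1.10 with a 95% interval of 0.68 to 1.52, adjusted p = 0.77). Cpxm1 rose in both, by 3.59 and by 6.40, and the non-regenerative digits started lower, with 0.137, 0.349 and 0.312 normalized TPM at 0 hours against 1.79, 2.28 and 3.06 (difference -2.80 with a 95% interval of -3.90 to -1.70, adjusted p = 0.77). Krt35 fell in intermediate digits and had 61.2, 34.5 and 44.9 and then 35.1, 142 and 6.37 in non-regenerative digits (difference -2.89 with a 95% interval of -5.16 to -0.61).

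**Figure D5:**
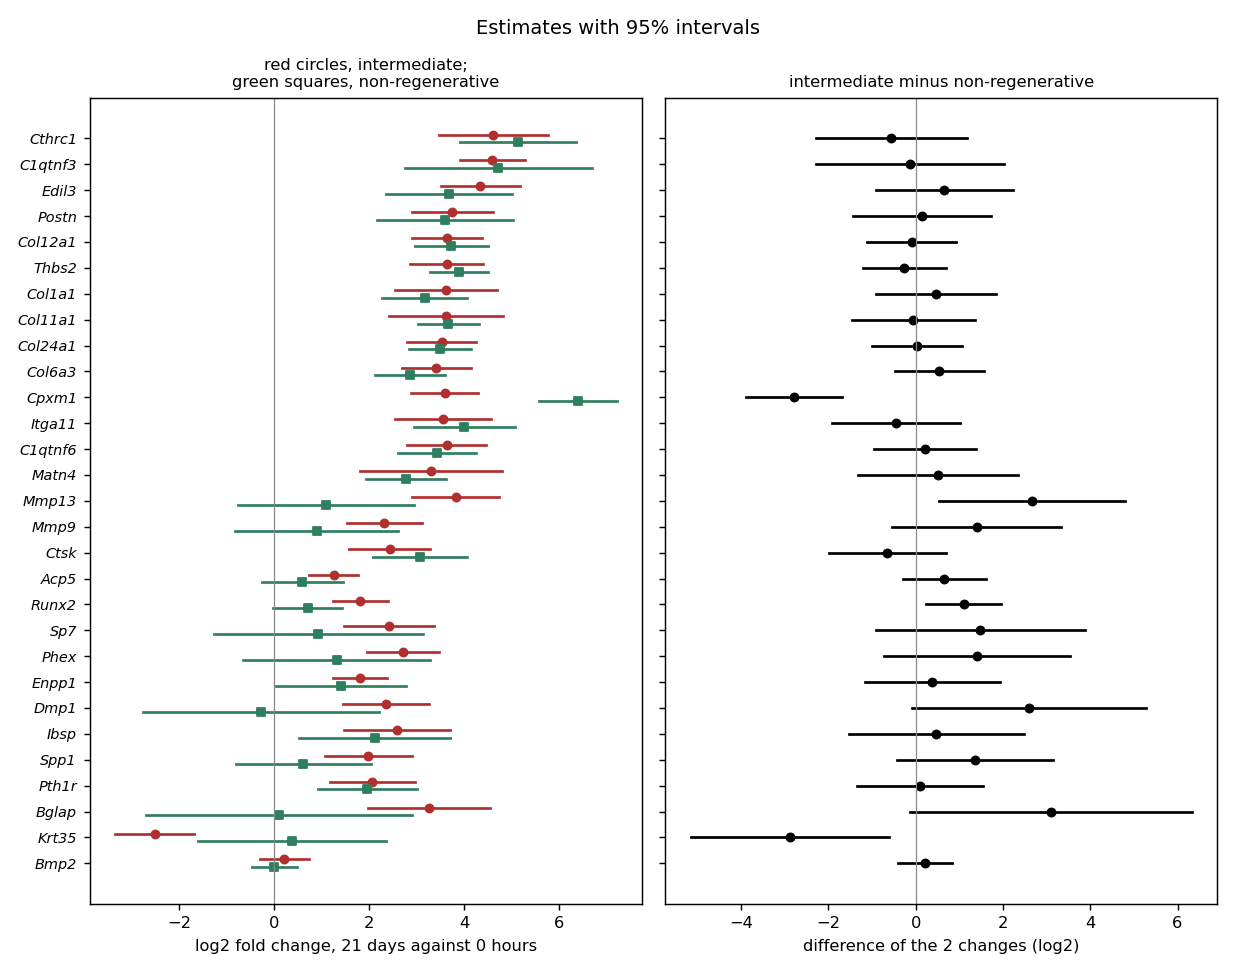
The left side shows the log2 fold change at 21 days against 0 hours with its 95% interval, for 29 genes in intermediate (red circles) and non-regenerative digits (green squares), and the right side the difference between the 2 changes with its 95% interval. The intervals of the difference include 0 for the matrix genes Col1a1, Postn and Col12a1, while Mmp13 and Runx2 lie above 0 and Cpxm1 and Krt35 below it before adjustment.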

How the data were processed

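RNA from the P3 wound bed of single digits was enriched for polyadenylated RNA, made into LM-Seq libraries and sequenced from 1 end. The authors aligned reads with Bowtie and estimated expression with RSEM on an Ensembl annotation, and the processing notes name CASAVA, mm10 and RSEM 1.2.3. The deposited expected counts were estimated per gene by the authors and were rounded here to whole numbers. The deposited normalized TPM signal was scaled between samples by the authors' median-by-ratio method, and was used for levels only. Whether counting used strand is not stated in the sources used here. The macrophage files of the series were not used. Of 21954 genes, 26 whose names had turned into dates were named again from the annotation. Digits were grouped by their labels, and replicates were numbered in accession order.

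Here edgeR 4.0.16 (R 4.3.3) fitted the 6 digits with TMM normalization, its default expression filter and the quasi-likelihood test, with Benjamini-Hochberg adjusted p under 0.05 and a fold over 2 as the limits the study used. The fits of 21 against 14 days, of 14 days and 24 hours against 0 hours, and of non-regenerative digits used the same steps, and the difference between amputation groups was an interaction term over 12 digits. DESeq2 1.42.0 and limma 3.58.1 were alternatives. The scripts were tested on simulated data. A floor of 3 counts in the smallest library of a group set the bound for genes at 0, which covers counting error only.

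Named genes were the 15 largest called rises and 15 largest called falls with a mean of at least 100 normalized counts and no overlap, without placeholder names, then up to 4 called members per list with the smallest adjusted p, or 2 members with the smallest p where none was called, Bmp2, and the 2 genes with the smallest p in each fit with none called. The members and the 37 lists were chosen with earlier results of these data known. Of 701 list entries, 4 were not found in the table. A few genes are not reported here.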

Additional observations from a re-analysis of the deposited data

How the results depend on the processing

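All 186 genes called at 21 days against 0 hours kept their direction under every alternative run. The groups do not overlap in these genes and the runs used the same digits, so this is no separate support. The number of genes called was 189 with DESeq2 size factors in edgeR and 240 without the fold limit, which include the 186. It was 186 with limma voom, of which 159 were among the 186 of the report, and 222 with all 12 intermediate digits and the amputation level, of which 154 were. It was 291 without the filter on low counts, 413 with DESeq2, 101 with limma on normalized TPM, 98 with all 12 intermediate digits in 1 fit, and 25 with all 41 digits, with or without the period of the label date as a term. Shared with the 186 were 185, 186, 91, 94 and, in both fits of 41 digits, 24. Leaving out a digit gave 45 to 280 genes. Of 60 named genes that were called, 17 stayed called with all 41 digits and the period and 24 without 0-hour replicate 2. At 21 against 14 days, DESeq2 called 14 genes and the fit of all 12 intermediate digits 1 (Csrp2), and for the difference between amputation groups DESeq2 called 7. The other alternatives of these tests called 0 genes. The causes of these differences were not tested. No paired analysis was possible because the short code, date and side in each label are not explained and do not tie a 0-hour digit to a 21-day digit. With 3 digits a group, an exact permutation test of a single gene cannot go below p = 0.1. The smallest library, with 3915768 counts, limits what can be called among low genes.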

Other observations

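Of the 164 genes called higher, 67 belonged to a gene list and the others did not. The following were chosen after their values were seen, as genes of known role among the 43 called in each fit that left out a digit. Slc40a1, which encodes ferroportin, the exporter of iron from cells, had normalized counts of 138, 112 and 149 at 0 hours and 439, 423 and 374 at 21 days (log2 fold change 1.64 ± 0.17, adjusted p = 0.00287, edgeR with Benjamini-Hochberg adjustment). Mecom, a zinc finger transcription factor gene, had 59.9, 78.3 and 54.3 and then 250.2, 173 and 273 (1.84 ± 0.25, adjusted p = 0.00726), and it overlaps the antisense transcript Mecomos. F2r, the thrombin receptor, had 358, 333 and 377 and then 929, 764 and 987 (1.33 ± 0.14, adjusted p = 0.00337). Plat, tissue plasminogen activator, had 86.6, 92.96 and 100.05 and then 271, 264 and 361 (1.68 ± 0.20, adjusted p = 0.00409). In each of these 4 genes the lowest 21-day digit was more than 2-fold above the highest 0-hour digit.

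Several further genes of that set act in matrix or at the cell surface. Adam12, a membrane metalloprotease of mesenchyme, had 29.7, 35.2 and 37.2 and then 271, 152 and 259 (2.74 ± 0.29, adjusted p = 0.00291). Pxdn, peroxidasin, which cross-links type IV collagen, had 121, 202 and 159 and then 561, 489.9 and 626 (1.80 ± 0.20, adjusted p = 0.00397). Col27a1, a fibrillar collagen of cartilage that the collagen list did not hold, rose by 2.18 ± 0.27 (adjusted p = 0.00558), and Mfap4, a microfibril protein, by 2.69 ± 0.31 (adjusted p = 0.00409). Ppic, cyclophilin C, a prolyl isomerase of the secretory pathway, rose by 2.26 ± 0.19 (adjusted p = 0.00177). No test set these genes against others.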
